A study of Mus musculus with 2 samples.

Results

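From the deposited expression table, 10 genes of cellular calcium handling were described, out of 54680 loci: the endoplasmic reticulum calcium pumps Atp2a1, Atp2a2 and Atp2a3, the plasma membrane calcium pumps Atp2b1 and Atp2b4, the store-operated entry genes Stim1 and Orai1, and the inositol trisphosphate (IP3) receptors Itpr1, Itpr2 and Itpr3. They were chosen by gene name, with the large difference of Atp2a3 between the libraries already known, so the values below are a description and no test was made. The data are RNA sequencing of CT26, an established mouse colon cancer line. One group, shSetdb1, received a lentivirus carrying a hairpin that knocks down Setdb1, the gene of an enzyme that methylates histone H3 at lysine 9. The other group, shCtrl, received the empty knockdown vector, and its genotype is labelled wild type. Both cultures grew in RPMI medium with serum, and the time of collection is given as 6 days, when the knockdown cells are labelled as differentiated. Each group had 1 library, so no difference has a replicate check, and values compare the 2 libraries rather than the conditions.

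Calcium is kept low in the cytosol and high in the endoplasmic reticulum. SERCA pumps, the products of the Atp2a genes, move it into the reticulum, and PMCA pumps, the products of the Atp2b genes, move it out of the cell. IP3 receptors release it from the reticulum when phospholipase C makes IP3, and STIM proteins sense the emptied store and open ORAI channels in the plasma membrane. In the gut, SERCA3, encoded by Atp2a3, is known from differentiated epithelium, whereas SERCA2, encoded by Atp2a2, is present in nearly all cells and SERCA1 belongs to fast skeletal muscle.

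Promoter sequences are shown for the gene with the largest difference, Atp2a3, and for the IP3 receptor genes that differed in opposite directions, Itpr2 and Itpr3. Each is the 250 bases before the RefSeq start site in GRCm38.p6, 5′ to 3′ on the gene's strand, with every CG in capitals. They lie at chr11:72960919-72961168 (plus strand), chr6:146502224-146502473 (minus strand) and chr17:27057054-27057303 (plus strand).
Atp2a3: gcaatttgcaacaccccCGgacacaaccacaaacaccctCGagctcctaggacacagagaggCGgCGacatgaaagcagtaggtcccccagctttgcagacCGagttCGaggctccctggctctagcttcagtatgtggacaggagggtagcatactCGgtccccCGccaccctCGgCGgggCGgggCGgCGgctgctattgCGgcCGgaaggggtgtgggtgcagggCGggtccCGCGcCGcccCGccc
Itpr2: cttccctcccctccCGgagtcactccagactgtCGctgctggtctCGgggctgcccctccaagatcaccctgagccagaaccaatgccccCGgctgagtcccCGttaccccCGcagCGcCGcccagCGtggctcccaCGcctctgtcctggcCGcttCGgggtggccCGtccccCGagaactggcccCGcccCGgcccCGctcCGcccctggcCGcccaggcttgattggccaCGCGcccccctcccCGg
Itpr3: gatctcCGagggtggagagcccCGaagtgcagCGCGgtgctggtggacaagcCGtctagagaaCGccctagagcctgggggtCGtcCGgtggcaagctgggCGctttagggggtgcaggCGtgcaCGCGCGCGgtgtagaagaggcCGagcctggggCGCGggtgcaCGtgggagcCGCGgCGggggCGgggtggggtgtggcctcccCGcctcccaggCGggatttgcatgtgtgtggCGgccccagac

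The Atp2a3 sequence held 20 CG, the Itpr2 sequence 22 and the Itpr3 sequence 25. Among the other genes at 1 FPKM with an entry, the window of Orai1 held 30, that of Stim1 31, and those of the 2 start sites of Atp2b1 43 and 41. The 4 genes that were higher in the knockdown library thus each had more CG here than the 2 lower genes with an entry, Atp2a3 and Itpr2. The other 2 lower genes at 1 FPKM, Atp2a2 and Itpr1, had no entry, so the comparison lacks them. It is a count over few genes and was not tested. Over 32851 promoter windows of the same length the median was 6 CG, and 92.1% held at least 1. Promoter entries were matched for 8 of the 10 genes, and only the window of the Atp2a1 gene, with 3 CG, and that of Atp2b4, with 2, fell below that median. Both genes had at most 5 reads in either library. The start site used for Atp2b4 lies inside the gene, 47294 bases from its GENCODE start, so its count does not describe the window at that start. The letters GGGCGG, which contain a CG, were found on either strand 5 times before Atp2a3, 4 times before Itpr2 and 1 time before Itpr3. They were found 8 times before Stim1, 3 times before Orai1, and 4 and 3 times before the start sites of Atp2b1. These counts did not separate the higher from the lower genes, and 32.7% of all windows held the letters. TATAAA was found in none of the windows of the 8 genes, on either strand, and in 12.4% of all windows. These counts describe letters only.

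Levels are given as FPKM, fragments scaled by gene length and by 1 sequencing depth, 18731117 reads, used for both libraries. Comparison of levels between genes relies on the gene lengths given. The whole number of reads behind each value could be recovered, from a total of 18421604 reads in the shCtrl library and 19045830 in the shSetdb1 library. Read ratios are shSetdb1 over shCtrl relative to these totals, with 95% exact (Clopper-Pearson) intervals. The intervals cover counting error only, since 1 library per group gives no spread between cultures. Reads copied by PCR are not independent molecules, so the intervals may be too narrow even for that error. Log2 ratios are of (FPKM + 1), which understates differences at low levels, and a gene was called changed at 2-fold or more on that scale. Setdb1 itself, the check of the labels, was at 10.4 FPKM (1340 reads) in shCtrl and 2.47 FPKM (317 reads) in shSetdb1. Its exons share 75 bases with Cers2 on the other strand. The culture did not show a full colon epithelial profile: of 11 epithelial markers, Epcam, Cdh1, Cdx1 and Lgr5 had no read in either library, and 3, all keratins, reached 1 FPKM. These 3 rose at least 2-fold in shSetdb1, opposite to Atp2a3, as did 6.81% of the 10671 genes at 1 FPKM or more. Krt18 went from 37.7 to 90.0 FPKM, Krt20 from 5.07 to 35.6 FPKM, and Krt19 from 1 read to 53. The remaining markers were under 1 FPKM. In shCtrl and shSetdb1, Krt8 had 7 and 8 reads, Muc2 3 and 1, Cdx2 5 and 18, and Vil1 1 and 7. Of 4 mesenchymal markers, none was called: Vim, with a read ratio of 1.07 (1.06 to 1.09), and Fn1, with 1.36 (1.34 to 1.37), were higher in shSetdb1, and Cdh2, with 0.855 (0.771 to 0.947), and Zeb1, with 0.812 (0.689 to 0.957), were lower. The part of these marker differences in the results below was not tested. In bulk RNA, fewer cells that express a gene and less of its RNA per cell cannot be told apart.

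Of the 10 genes, 8 reached 1 FPKM in at least 1 library, and Atp2a3 alone was called. It was at least 2-fold lower in shSetdb1, as were 4.85% of the 10671 genes at 1 FPKM or more. None of the 8 was at least 2-fold higher, against 6.81% of all genes. Because Atp2a3 was known when the group was put together, nothing is read from these shares. Of the 8, 4 had a log2 ratio below 0, as 50% of all genes did, and 4 had one above 0, against 49.6% of all genes. Their median log2 ratio was -0.0581, and that of all 10671 genes was -0.00039, with quartiles of -0.36 and 0.38.

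**Figure D1:**
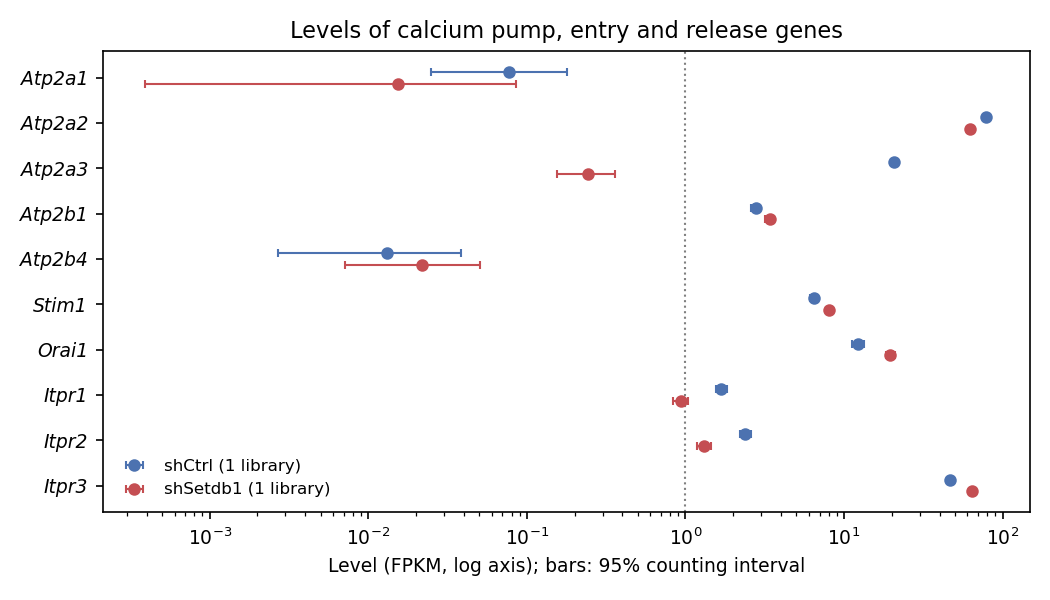
Level of each gene in FPKM (log axis) in the shCtrl library (blue) and the shSetdb1 library (red), 1 library per group, with bars for the 95% Poisson counting interval and a dotted line at 1 FPKM. Atp2a3 moves from 20.6 to 0.243 FPKM, while the other genes above 1 FPKM in shCtrl stay within 2-fold of their shCtrl level.

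Atp2a3 (ENSMUSG00000020788, plus strand of chromosome 11, 72961169 to 72993044 in GRCm38) encodes SERCA3, a pump with a low affinity for calcium. It was at 20.6 FPKM (2038 reads) in shCtrl and at 0.243 FPKM (24 reads) in shSetdb1. The knockdown library was the low one, and the counting intervals of the levels, 19.7 to 21.5 and 0.155 to 0.361 FPKM, are far apart. The read ratio was 0.0114 (0.00728 to 0.0170), an 87.8-fold fall with an interval of 58.8 to 137. On the log2 (FPKM + 1) scale the ratio was -4.12, and without the pseudocount it was -6.46, so the size of the fall depends on the scale. Among the 10671 genes, 3 had a lower log2 ratio of (FPKM + 1). No other gene with reads shares exon bases with Atp2a3, and no other locus of the table carries its protein match.

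Atp2a2 (ENSMUSG00000029467, minus strand of chromosome 5, 122453513 to 122502225) encodes SERCA2, the housekeeping pump of the reticulum. Its level was 78.7 FPKM (8965 reads) in shCtrl and 62.1 FPKM (7077 reads) in shSetdb1. This was lower by less than 2-fold, with a read ratio of 0.764 (0.740 to 0.788). Atp2a1 (ENSMUSG00000030730, minus strand of chromosome 7, 126445858 to 126463108), the muscle pump gene, had 5 reads in shCtrl and 1 in shSetdb1, a read ratio of 0.193 (0.00409 to 1.73), and a difference was not detectable at this depth. Its exons share 763 bases with Rabep2 on the other strand, which had 443 and 449 reads, and whether the counting used strand is not given in the sources used here.

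Added up per length, the SERCA genes were at 99.4 FPKM in shCtrl and 62.4 FPKM in shSetdb1, a log2 ratio of -0.66. No member of the family was higher in the knockdown library. Atp2a3 made up 20.7% of the SERCA sum in shCtrl and 0.389% in shSetdb1, and Atp2a2 went from 79.2% to 99.6%. Of the 37.0 FPKM that the sum lost, 20.4 FPKM (55.0%) came from Atp2a3 and 16.6 FPKM from Atp2a2. The remaining SERCA transcript in shSetdb1 was therefore almost entirely Atp2a2, at a level below that of shCtrl.

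**Figure D2:**
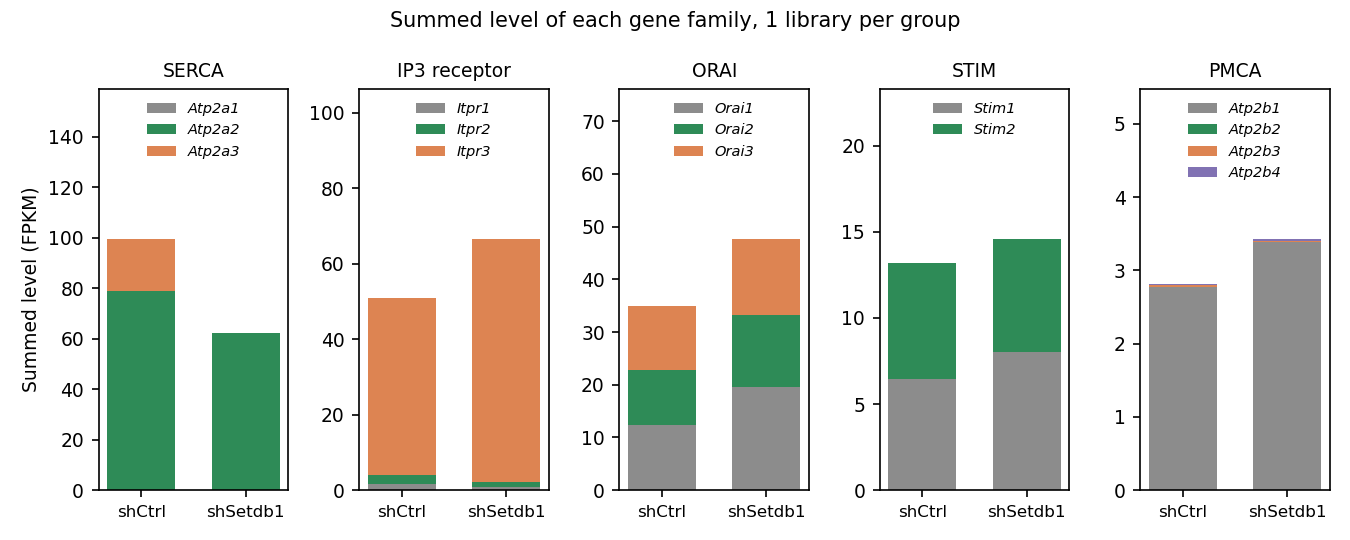
Summed level in FPKM of each gene family in the shCtrl and shSetdb1 libraries, 1 library per group, with 1 colour per gene and a separate linear axis from 0 for each family. The SERCA sum drops from 99.4 to 62.4 FPKM and loses the Atp2a3 block, while the IP3 receptor sum goes from 50.8 to 66.4 FPKM.

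Plasma membrane pumps were low in both libraries. Atp2b1 (ENSMUSG00000019943, plus strand of chromosome 10, 98914406 to 99026143), the widely expressed PMCA gene, was at 2.77 FPKM (789 reads) in shCtrl and 3.39 FPKM (966 reads) in shSetdb1. Its read ratio was 1.18 (1.08 to 1.30), slightly higher in the knockdown library. Atp2b4 (ENSMUSG00000026463, minus strand of chromosome 1, 133699457 to 133801041) had 3 reads in shCtrl and 5 in shSetdb1, a ratio of 1.61 (0.314 to 10.4), so a difference was not detectable at this depth. Atp2b1 made up 98.4% of the PMCA sum in shCtrl and 99.0% in shSetdb1. The sum of all 4 PMCA genes went from 2.81 to 3.42 FPKM, a difference in level of 0.610 FPKM beside the 37.0 FPKM lost by the SERCA genes.

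The store-operated entry genes were both higher in the knockdown library by less than 2-fold. Stim1 (ENSMUSG00000030987, plus strand of chromosome 7, 102267806 to 102437319), the calcium sensor in the reticulum membrane, was at 6.43 FPKM (1249 reads) in shCtrl and 8.03 FPKM (1560 reads) in shSetdb1, a read ratio of 1.21 (1.12 to 1.30). Orai1 (ENSMUSG00000049686, plus strand of chromosome 5, 123015074 to 123030456), the pore of the entry channel, was at 12.3 FPKM (528 reads) in shCtrl and 19.6 FPKM (842 reads) in shSetdb1. Orai1 had the highest log2 ratio of the 8 genes, 0.63, and a read ratio of 1.54 (1.38 to 1.72). Their paralogs, named after their values were seen, differed less: Stim2 was at 6.75 and 6.52 FPKM, Orai2 at 10.6 and 13.6 FPKM, and Orai3 at 12.1 and 14.4 FPKM in shCtrl and shSetdb1. The 3 ORAI genes held like shares of their sum in shCtrl, from 30.2% to 35.1%, and Orai1 held 41.2% in shSetdb1. Summed ORAI levels went from 35.0 to 47.6 FPKM and summed STIM levels from 13.2 to 14.6 FPKM.

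IP3 receptor genes differed in opposite directions. Itpr3 (ENSMUSG00000042644, plus strand of chromosome 17, 27057304 to 27122223), the main receptor gene of this line, was at 46.7 FPKM (7864 reads) in shCtrl and 64.1 FPKM (10802 reads) in shSetdb1, a read ratio of 1.33 (1.29 to 1.37). Itpr1 (ENSMUSG00000030102, plus strand of chromosome 6, 108213096 to 108551109), best known from neurons, was lower in the knockdown library, at 1.68 FPKM (577 reads) and 0.935 FPKM (321 reads). Itpr2 (ENSMUSG00000030287, minus strand of chromosome 6, 146108299 to 146502223), the subtype most sensitive to IP3, was at 2.38 FPKM (661 reads) in shCtrl and 1.31 FPKM (364 reads) in shSetdb1. The read ratios of these less abundant receptors were nearly equal, 0.538 (0.468 to 0.618) for Itpr1 and 0.533 (0.467 to 0.606) for Itpr2, and neither was called at 2-fold. Itpr3 already made up 92.0% of the IP3 receptor sum in shCtrl and made up 96.6% in shSetdb1. As the receptor sum went from 50.8 to 66.4 FPKM, the SERCA sum per receptor sum went from 1.96 to 0.940.

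**Figure D3:**
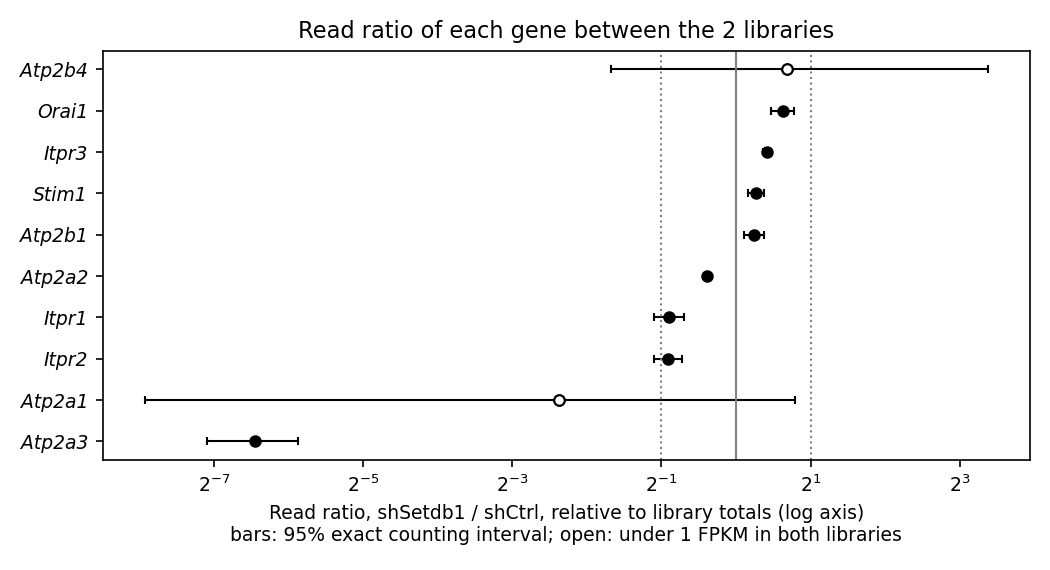
Read ratio of each gene, shSetdb1 over shCtrl relative to library totals (log axis), from lowest at the bottom to highest at the top, with 95% exact counting intervals and dotted lines at 2-fold. Atp2a3 at 0.0114 lies far to the left, Itpr1 and Itpr2 lie near the lower dotted line, and the open points, Atp2a1 and Atp2b4, had at most 5 reads in a library.

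The order of the levels changed at the top and at Atp2a3. In shCtrl it ran Atp2a2, Itpr3, Atp2a3, Orai1, Stim1, Atp2b1, Itpr2, Itpr1, Atp2a1 and Atp2b4, and the counting intervals of neighbours overlapped only for the last pair. In shSetdb1 Itpr3 and Atp2a2 came first with overlapping intervals, 62.9 to 65.4 and 60.7 to 63.6 FPKM. Orai1, Stim1, Atp2b1, Itpr2 and Itpr1 followed in the same order as in shCtrl. Atp2a3 went from rank 3 to rank 8 of the 10 genes, above only Atp2b4 and Atp2a1, whose intervals overlapped.

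The surroundings of Atp2a3 were looked at after its value was seen. Of the protein-coding genes within 150 kb on chromosome 11, 6 were found, and none was lower in shSetdb1 beyond its counting interval. P2rx1, which encodes an ATP-gated channel and lies 6059 bases beyond the end of Atp2a3, had 31 reads in shCtrl and 40 in shSetdb1, a ratio of 1.25 (0.761 to 2.06). Camkk1, which encodes a calcium/calmodulin-dependent kinase kinase, lies 25964 bases away and was at 2.42 and 3.65 FPKM, a ratio of 1.46 (1.20 to 1.78). On the other side, Zzef1 ends 34049 bases before Atp2a3 and was at 2.50 and 3.74 FPKM, a ratio of 1.45 (1.32 to 1.59). Ncbp3, with a ratio of 0.984 (0.857 to 1.13), Haspin, with 1.32 (1.09 to 1.61), and Itgae, with 9 and 15 reads, completed the window. The difference at Atp2a3 was not shared by its measured neighbours in these libraries.

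Across 22016 other protein-coding genes, the levels nearest to those of Atp2a3 in the pair of libraries, by distance on the log2 (FPKM + 1) scale, belonged to Cox6a2, Prr32 and Sh2d6. Cox6a2 had 245 reads in shCtrl and 9 in shSetdb1, at a distance of 0.47. Prr32 had 225 and 2 reads (distance 0.89), and Sh2d6 had 340 and 7 reads (distance 0.92). Likeness over 2 libraries is a description of these values only.

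Atp2a3 is also known from blood cells, platelets, endothelium and tuft cells, so markers of these and of muscle were listed beside it. Pecam1 and Cdh5, for endothelium, and Cd3e, for T cells, had no read in either library. Among blood cell markers, Itga2b had 50 reads in shCtrl and 137 in shSetdb1, and Ptprc had 0 and 4. Muscle markers had 1 read in all. The 4 tuft cell markers summed to 42.5 FPKM in shCtrl and 1.14 FPKM in shSetdb1, which was Avil, with 2706 and 70 reads. The other tuft cell markers were at or near 0, with no read for Dclk1, 3 and 1 reads for Trpm5 and 0 and 2 reads for Pou2f3. The part of Avil-expressing cells in the Atp2a3 difference was not tested.

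Other genes of calcium handling were taken from 10 lists, of which 149 genes were found and 83 reached 1 FPKM. Of these 83, 3 fell at least 2-fold in shSetdb1 (3.61%, beside 4.85% of all genes) and 3 rose at least 2-fold (3.61%, beside 6.81%). Their median log2 ratio was 0.11, and 47 were above 0 and 36 below, beside 49.6% and 50% of all genes. The counts for single lists below stand beside the same shares and were not tested. The 3 that fell were Erlin1, Ppp3ca and Hspa5, and the 3 that rose were Bsg, Mcub and Bok. With a pseudocount of 0.1, Trpm7 was added to those that fell (4 of 83, beside 8.15% of all genes) and Trpm4 and Cracr2b to those that rose (5 of 83, beside 10.6%). The differences of the 6 genes called with a pseudocount of 1 were smaller than that of Atp2a3.

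**Figure D4:**
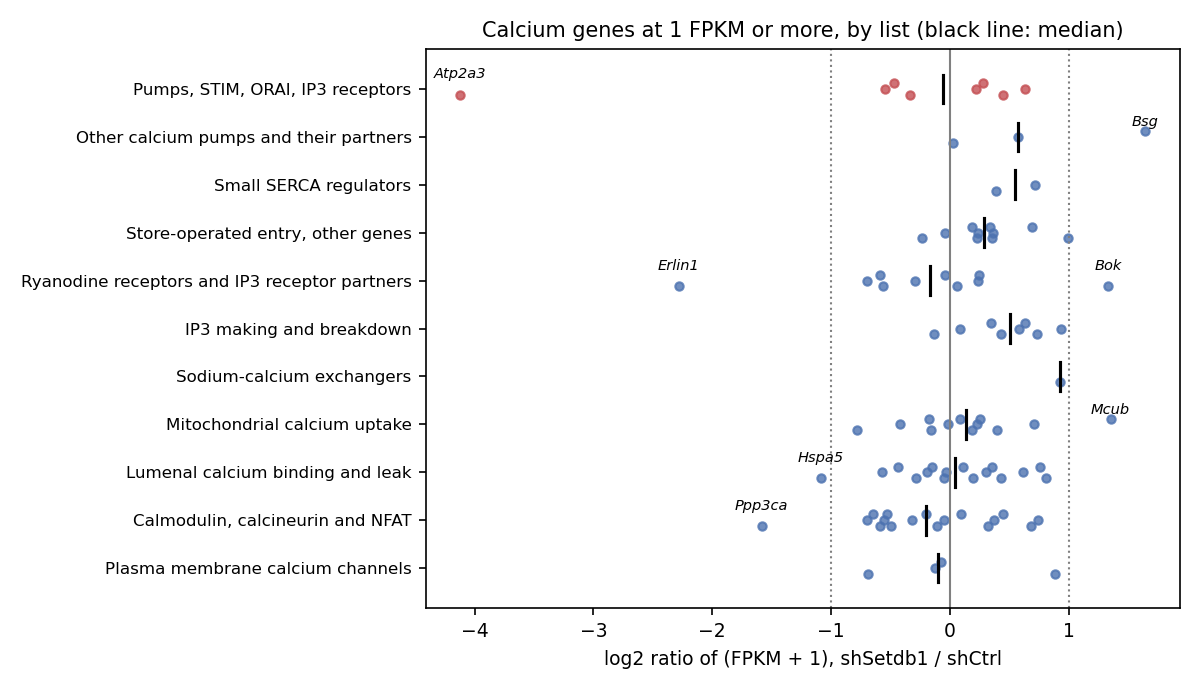
Log2 ratio of (FPKM + 1), shSetdb1 over shCtrl, of each gene at 1 FPKM or more, with 1 row for the pump, STIM, ORAI and IP3 receptor genes (red) and 1 for each calcium gene list (blue), black lines at medians and dotted lines at 2-fold. Atp2a3 at -4.12 stands left of every listed gene, the next being Erlin1 at -2.28.

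Of 7 genes in the list of other pumps and their partners, 3 reached 1 FPKM and 1 of them, Bsg, was called. Their median log2 ratio was 0.57, and that of all 7 genes with no filter was 0.02. Bsg, which encodes basigin, a chaperone subunit of PMCA pumps and of lactate transporters, rose from 367 to 1150 FPKM, a read ratio of 3.03 (2.97 to 3.09). Nptn, which encodes the related neuroplastin and was named after its value was seen, was at 24.4 and 36.8 FPKM, a read ratio of 1.46 (1.39 to 1.53). Atp2c1, the Golgi calcium pump gene, was lowest at 2.18 and 2.23 FPKM, with a log2 ratio of 0.02 that was below 0 under 3 of the 4 other scalings and a read ratio of 0.992 (0.861 to 1.14). Its exons share 1837 bases with Aste1 on the other strand. Of 9 regulators of SERCA listed, 7 were found, and Erln and Arln were not analysed here. The muscle regulators Pln, Mrln and Strit1 (listed under an older name) had no read, and Sln had 0 and 2 reads. In that list 2 genes reached 1 FPKM, Tmem41b at 2.09 and 4.08 FPKM and Tmx1 at 6.02 and 8.17 FPKM, named after their values were seen.

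The other genes of store-operated entry differed by less than 2-fold on the log2 (FPKM + 1) scale. Of 15 found, 10 reached 1 FPKM, with 8 above 0 and 2 below, beside 49.6% of all genes above 0. None was called, beside 4.85% of all genes lower and 6.81% higher. The median was 0.29, and 0.19 over all 15 with no filter. Cracr2b, a regulator of ORAI channels, was highest at 5.31 and 11.6 FPKM, with a log2 ratio of 0.99 just under the 2-fold threshold and a read ratio of 2.10 (1.82 to 2.44). Its exons share 1405 bases with Gm10575, which had 27 and 49 reads. Slc39a7, a zinc transporter of the reticulum, was lowest at 7.99 and 6.63 FPKM (log2 ratio -0.24). The channel genes Trpc1 and Trpc6 had no read.

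Ryanodine receptors, the other release channels of the reticulum, were close to absent: Ryr2 and Ryr3 had no read and Ryr1 had 18 and 15. Among the IP3 receptor partners in the same list, 10 genes reached 1 FPKM, with 6 below 0 and 4 above (median -0.17). Erlin1, part of the complex that binds activated IP3 receptors for degradation, fell from 33.2 FPKM (3082 reads) to 6.02 FPKM (559 reads), a read ratio of 0.175 (0.160 to 0.192). Its partner Erlin2, named after its value was seen, was at 13.3 and 8.55 FPKM, a log2 ratio of -0.59. Bok, a BCL2 family member that binds IP3 receptors, rose from 30.8 to 79.1 FPKM, a read ratio of 2.49 (2.32 to 2.67). For genes that make or break down IP3, 8 of 17 reached 1 FPKM, with 7 above 0 and 1 below, beside 49.6% of all genes above 0. None was called, beside 4.85% of all genes lower and 6.81% higher. The median was 0.51, and 0.09 over all 17 with no filter. The phospholipase C gene Plcd3 was highest at 16.1 and 31.8 FPKM (log2 ratio 0.94), and Inpp5a, an IP3 phosphatase gene, was lowest of the 8 at 13.4 and 12.1 FPKM (log2 ratio -0.14). Of the phospholipase C genes under 1 FPKM, named after their values were seen, Plcb4 had 161 reads in shCtrl and 22 in shSetdb1, a read ratio of 0.132 (0.0806 to 0.207), and Plcb1 had 169 and 89, a read ratio of 0.509 (0.390 to 0.662).

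The mitochondrial uniporter genes diverged. Of 12 genes of mitochondrial calcium uptake at 1 FPKM, 7 were above 0 and 5 below (median 0.14). Mcu, the pore subunit, was lowest at 7.98 FPKM (1037 reads) in shCtrl and 4.21 FPKM (547 reads) in shSetdb1, a log2 ratio of -0.79. Mcub, whose product joins the pore and lowers its activity, was highest and rose from 28.8 FPKM (710 reads) to 75.0 FPKM (1851 reads), a log2 ratio of 1.35. Slc8b1, the mitochondrial sodium-calcium exchanger, was the 1 exchanger gene of 9 that reached 1 FPKM, at 11.2 and 22.2 FPKM, and was named after its value was seen.

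Calcium-binding proteins of the reticulum lumen and leak channels lay on both sides of 0, with 8 of 16 above 0, 8 below and a median of 0.04 that was below 0 under 3 of the 4 other scalings. Calr, which encodes the buffer calreticulin, was highest at 339 and 593 FPKM (log2 ratio 0.81). Hspa5, which encodes the chaperone BiP and is commonly induced by store depletion, was lowest and fell from 190 FPKM (15042 reads) to 88.7 FPKM (7030 reads), with a read ratio of 0.452 (0.439 to 0.465) and a log2 ratio of -1.09.

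Downstream of calcium, 17 of 24 genes of calmodulin, calcineurin and NFAT reached 1 FPKM. Of these, 11 were below 0 and 6 above, beside 50% and 49.6% of all genes. The median was -0.20, and -0.04 over all 24 with no filter. Ppp3ca, a catalytic subunit of the phosphatase calcineurin, fell from 15.7 FPKM (2928 reads) to 4.56 FPKM (852 reads), a read ratio of 0.281 (0.260 to 0.304). The other calcineurin subunits at 1 FPKM, named after their values were seen, were lower by less than 2-fold: Ppp3cb at 4.61 and 2.82 FPKM, Ppp3cc at 5.88 and 3.26 FPKM, and Ppp3r1 at 10.8 and 6.52 FPKM. Ppp3r1 shares 462 exon bases with Wdr92 on the same strand, so its reads are less certain. Summed over these 4 subunits the level went from 36.9 to 17.1 FPKM. Calm3, 1 of the 3 calmodulin genes for an identical protein, was highest at 174 and 292 FPKM (log2 ratio 0.74).

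Few genes in the list of plasma membrane channels, which also holds channels opened by calcium, reached 1 FPKM. Of 19 listed, 4 did, with 1 above 0 and 3 below (median -0.10), and none was called with a pseudocount of 1. Trpm4, a cation channel opened by intracellular calcium, was highest at 3.44 and 7.21 FPKM (log2 ratio 0.89). Trpm7, a channel fused to a kinase, was lowest at 2.25 and 1.01 FPKM (log2 ratio -0.69). With a pseudocount of 0.1 both passed 2-fold, with log2 ratios of 1.05 for Trpm4 and -1.08 for Trpm7. The other 15 genes had 303 reads in shCtrl and 150 in shSetdb1 in all, none above 0.738 FPKM. Most of these reads were of Cacna1c, named after its value was seen, with 293 and 113. Its read ratio was 0.373 (0.298 to 0.465), so the pooled reads do not describe the other genes.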

How the data were processed

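The authors deposited 1 table of FPKM values for 54680 loci, with gene positions and lengths. CASAVA, HISAT2 and featureCounts 1.5.0-p3, on GRCm38, are named in the submitters' processing notes with no role given. The aligner settings and the use of strand are not given in the sources used here. Of the locus IDs, 54409 were found in GENCODE M21 (GRCm38), 98.3% with the same start and end.

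Groups were taken from the library names in the labels. FPKM times gene length gave whole reads (within 0.01) for 100% of values above 0, and the authors scaled both columns to 1 common depth, 18731117 reads, so log2 ratios of FPKM carry the 1.03 ratio of the totals. The pseudocount was 1 FPKM, the filter 1 FPKM in at least 1 library and the threshold 2-fold. No p-value was computed. Members, lists and tests were chosen with earlier results of these data known. Genes named are the 10 members, Setdb1, the highest and lowest of each calcium list with at least 3 genes passing the filter, and the 3 genes nearest to Atp2a3; others are marked. Symbols found on more than 1 locus were represented by the locus with the highest read sum. Promoter sequences are from RefSeq (GRCm38.p6). Calculations, in Python 3.11.15 with numpy 2.4.6, pandas 2.3.3 and scipy 1.17.1, were tested on simulated data. Alternatives were other pseudocounts, scalings, filters and thresholds. Some listed genes are not reported here.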

Additional observations from a re-analysis of the deposited data

How the results depend on the processing

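No paired analysis was possible because there was a single library on each side, and so none could be left out. The Atp2a3 log2 ratio was -5.92 with a pseudocount of 0.1 and -6.46 as a read ratio without a pseudocount, an alternative chosen after seeing the data; a smaller pseudocount moves a low value further by construction. The 4 scalings kept it within its counting interval. The log2 ratio of the summed SERCA FPKM was -0.72 when scaled to own read totals without a pseudocount. With the pseudocount of 1 it was -0.71 when scaled to own read totals and -0.72 when scaled to the upper quartile. It was also -0.72 when scaled to the sum that leaves out the 100 highest genes, since each scaling shifts all genes. The ratio of the summed SERCA reads, relative to the library totals, was 0.624 (0.606 to 0.643). At a threshold of 1.5-fold, 1 of the 10 genes, Orai1, counted as higher, and at 2-fold none did in any alternative. The count of lower genes stayed at 1 in all 10 alternatives run, which include thresholds of 1.5-fold and 4-fold. The 1.5-fold threshold was run only with the pseudocount of 1, which shrinks low levels. By read ratio, Itpr1 was 1.86-fold and Itpr2 1.88-fold lower, past that threshold. For the 29 other genes named by rule, 174 alternative values were computed, of which 132 lay within the gene's counting interval, 42 moved and 4, all of Atp2c1, took the other sign. Of 64 alternative values of 8 list medians, 19 lay within a counting interval taken from the list's summed reads and 45 moved. Among the 64, 6 took the other sign: 5 of lumenal calcium binding genes, and plasma membrane channels at 0.38 with a filter at 5 FPKM. Depth limits Atp2a1 and Atp2b4, with at most 5 reads in a library.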
